A study of Mus musculus with 8 samples.

Results

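The 10 genes described here encode the nonmuscle contractile machinery and the kinases and phosphatase subunit that set its activity: the myosin heavy chains Myh9 and Myh10, the regulatory light chains Myl9, Myl12a and Myl12b, the kinases Rock1 and Rock2, the myosin phosphatase targeting subunit Ppp1r12a, and the actin cross-linkers Actn1 and Actn4. They were chosen by name and function, with earlier results of these data known, and the choice used no measured value as a criterion. All 10 were among the 55291 gene symbols of the count table and all 10 were among the 26820 genes tested, which had a total of at least 8 counts over the libraries.

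Poly(A) RNA of ventricular tissue from mouse embryos at E10.5 was sequenced in 8 libraries, 4 biological replicates in each of 2 groups. The knockout group (cKO) was homozygous for a floxed Pkn2 allele and carried XMLC2-Cre, a transgene with a myosin light chain promoter that recombines floxed alleles in cardiomyocytes. The control group was made of littermates that were also Pkn2 fl/fl but had no Cre, so floxed alleles are shared by both groups, and the effects of Cre and of Pkn2 loss cannot be told apart. The strain label is C57BL/6, and the study's methods place every line on C57BL/6N. The methods say that both sexes were used, with no sex given for a library, and name the single animal or embryo as the usual experimental unit. The ventricle also holds endocardial, epicardial and blood cells in which the driver is not active, and in such tissue fewer cells of a type and less RNA per cell cannot be told apart. Pkn2 itself was at 24.6, 23.3, 22.8 and 25.1 TPM, a transcript abundance scaled by length and depth, in the 4 cKO libraries and at 39.0, 44.3, 43.5 and 48.1 TPM in the 4 controls. By edgeR (quasi-likelihood test of raw counts, Benjamini-Hochberg adjustment over all genes tested, threshold 0.05) its log2 fold change was −0.83 (SE 0.06, adjusted p = 7.67e-06), and its mean TPM in cKO was 54.8% of that in control. For its relative Pkn3 the same edgeR test gave 0.17 on the log2 scale (adjusted p = 0.419). All 10 cardiomyocyte markers listed were detected in every library, the lowest being Nkx2-5 with a mean of 109 CPM, counts scaled to library size.

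Nonmuscle myosin II is a hexamer of heavy chains, essential light chains and regulatory light chains that pulls on actin filaments. RhoA, when bound to GTP, activates the ROCK kinases, which phosphorylate the regulatory light chain and also inhibit myosin phosphatase through its targeting subunit, and both actions raise contractility. PKN2, a serine/threonine kinase, is another effector of RhoA, and in the embryonic heart actomyosin tension takes part in cell rounding, delamination and the shaping of the wall. The question addressed was whether the transcripts of this machinery differ when cardiomyocytes lack Pkn2.

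Among the 10 genes the values furthest from control were those of the heavy chain gene Myh9, with a fitted fold of 1.25 in cKO, and of the light chain genes Myl12a (0.865-fold) and Myl12b (0.762-fold). The kinase genes Rock1 and Rock2, the phosphatase gene Ppp1r12a and the abundant light chain gene Myl9 had fitted folds of 0.981 to 1.002, and Myh10, Actn1 and Actn4 of 1.03 to 1.06. No member passed the adjusted threshold, in either direction, where 0.858% of all 26820 genes did (0.515% higher and 0.343% lower in cKO), nor both that threshold and a fold of at least 1.5, where 0.365% did. At an unadjusted edgeR p under 0.05 there were 3 members, Myh9, Myl12a and Myl12b. This share of 30.0% is set beside 12.8% of all genes and 23.1% of the 2200 genes with a mean of at least 100 CPM. All members but Myl12b belong to that class, so of these 3 it holds Myh9 and Myl12a. The libraries did not overlap in CPM for 2 members, Myl12a and Myl12b, with every cKO below every control. This held for 3.77% of all genes and for 206 of the 2200 genes at 100 CPM or more, a class without Myl12b. For no member was every cKO above every control, against 3.14% of all genes and 74 of the 2200 genes at 100 CPM or more. Of the 10 log2 fold changes 6 were above 0, and their median was 0.0016, beside −0.00085 over all genes tested. Direction differed with level: 835 of the 2200 genes at 100 CPM or more were higher in cKO, with a median of −0.0287. By DESeq2, 2 members passed the adjusted threshold, Myh9 and Myl12a, out of 867 genes called. DESeq2 with condition alone is the test named in the study's methods, which also ask for a fold of at least 1.5. Neither gene reached that fold.

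**Figure D1:**
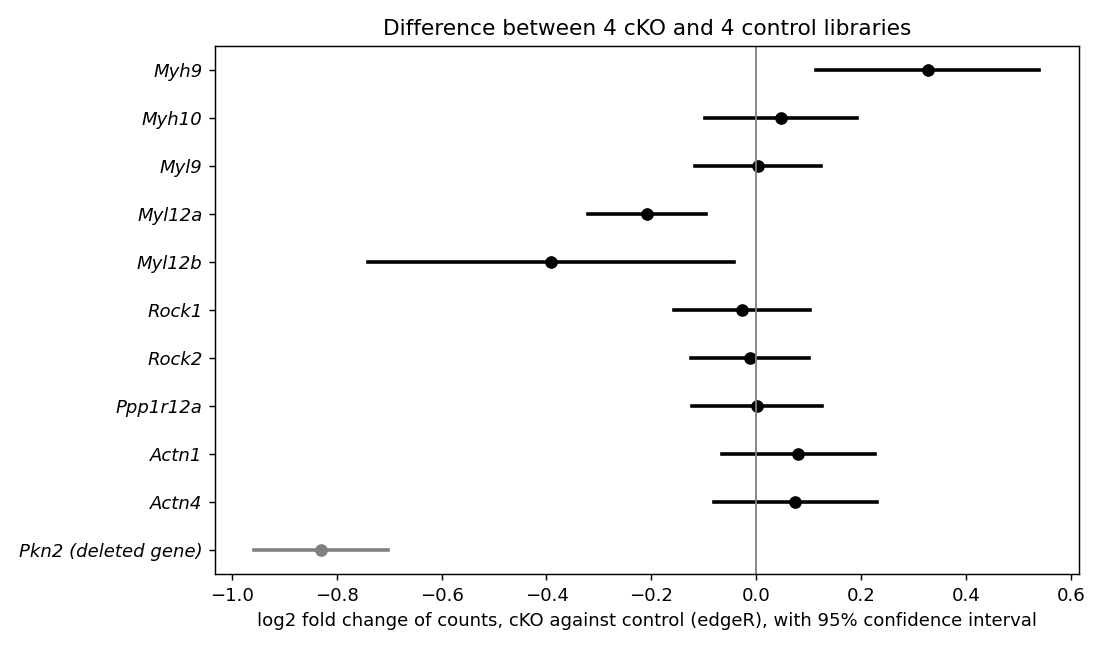
edgeR log2 fold change of the counts, cKO against control (horizontal axis), for the 10 genes and for Pkn2, with 95% confidence intervals as lines. The intervals of Myh9 (0.11 to 0.54), Myl12a (−0.32 to −0.10) and Myl12b (−0.74 to −0.04) leave out 0 before adjustment, and those of the other 7 genes hold it.

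The 3 regulatory light chain genes are close copies, and their sequences bear on how their reads can be assigned. The coding segment around the codons for the threonine and serine that ROCK and myosin light chain kinase phosphorylate (codons 19 and 20, coding bases 37 to 81) is shown for each in the GENCODE vM39 transcripts of GRCm39, with capitals for bases of Myl9 unlike Myl12a.
Myl12a: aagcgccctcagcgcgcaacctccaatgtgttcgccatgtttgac
Myl12b: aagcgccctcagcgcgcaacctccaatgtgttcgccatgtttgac
Myl9: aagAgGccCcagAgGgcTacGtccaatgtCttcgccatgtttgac
All 45 bases of this segment were identical in Myl12a and Myl12b, and 8 bases differed in Myl9. Over the whole coding sequence Myl12a and Myl12b shared 498 of 516 bases (96.5%), and Myl9 shared 442 of 516 (85.7%) with Myl12a. The other partners were further apart, with 74.7% of aligned coding bases identical between Myh9 and Myh10, 69.3% between Rock1 and Rock2 and 80.5% between Actn1 and Actn4.

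Myl12a and Myl12b also lie side by side on the minus strand of chromosome 17, at chr17:70993656-71002878 and chr17:70973133-70990890 in the coordinates of the TPM table, which are those of GRCm38. Myl9 is at chr2:156775420-156781658 on the plus strand. Promoter sequences from RefSeq (GRCm38.p6, windows of 300 bases around the transcript start) were found for 9 members, and those of the 3 light chains are shown because their transcript levels lay far apart, with capitals for the CArG box, the sequence bound by serum response factor.
Myl9 promoter, chr2:156775214-156775513, plus strand: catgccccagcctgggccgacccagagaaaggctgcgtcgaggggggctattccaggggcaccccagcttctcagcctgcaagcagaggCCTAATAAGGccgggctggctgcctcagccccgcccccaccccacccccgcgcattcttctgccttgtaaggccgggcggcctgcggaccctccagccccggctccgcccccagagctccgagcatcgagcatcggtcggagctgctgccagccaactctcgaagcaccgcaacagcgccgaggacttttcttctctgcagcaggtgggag
Myl12a promoter, chr17:71002484-71002783, minus strand: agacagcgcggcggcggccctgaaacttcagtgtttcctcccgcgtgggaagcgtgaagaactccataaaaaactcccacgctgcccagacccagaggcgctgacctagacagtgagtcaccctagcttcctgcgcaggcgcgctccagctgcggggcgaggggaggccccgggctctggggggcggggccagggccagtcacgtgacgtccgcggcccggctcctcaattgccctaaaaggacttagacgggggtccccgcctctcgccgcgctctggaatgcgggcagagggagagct
Myl12b promoter, chr17:70990467-70990766, minus strand: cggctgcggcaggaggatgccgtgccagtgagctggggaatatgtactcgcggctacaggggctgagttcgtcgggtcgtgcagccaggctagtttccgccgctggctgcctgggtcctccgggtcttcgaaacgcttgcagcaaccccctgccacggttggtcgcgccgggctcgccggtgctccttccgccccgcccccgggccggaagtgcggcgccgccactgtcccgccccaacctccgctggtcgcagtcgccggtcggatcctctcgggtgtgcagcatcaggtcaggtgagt
The Myl9 window held 1 CArG box, starting 161 bases before the transcript start on which that window was set. That start lies downstream of the gene start given above for Myl9. The windows of Myl12a and Myl12b lie wholly inside the gene spans given above, so sequence upstream of those gene starts was not searched. None was found in the windows of the other 8 members, and 1.63% of the 32851 promoters in the RefSeq table held one, reading both strands. A match is a sequence description and no binding was measured here.

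Levels were compared between genes in TPM, which is scaled by transcript length. Myl9 was by far the most abundant member with a mean of 1829 TPM over the 8 libraries (SD 55.6), rank 69 of all genes, followed by Myl12a with 408 TPM (SD 26.7). Actn4 (188 TPM), Actn1 (186 TPM) and Myh10 (176 TPM) came next, and their ranges over the libraries overlapped. Myh9 lay below them with 107 TPM (SD 21.0), then Ppp1r12a with 71.8 and Myl12b with 61.2 TPM, whose ranges also overlapped. Rock2 at 42.1 TPM (SD 1.71) and Rock1 at 29.1 TPM (SD 1.83) were the lowest, and Rock2 was above Rock1 in 8 of 8 libraries. The SD of Myh9 was larger for its mean than that of any other member.

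The heavy chains, regulatory light chains and alpha-actinin of the cardiac sarcomere were each higher than their nonmuscle counterparts. Control means were 3188 TPM for the cardiac heavy chain Myh7 and 1753 TPM for Myh6, 12227 TPM for the ventricular regulatory light chain Myl2 and 6004 TPM for the atrial form Myl7, 3466 TPM and 5479 TPM for the essential light chains Myl3 and Myl4, and 672 TPM for the Z-disc cross-linker Actn2. None of these 7 passed the threshold, with edgeR log2 fold changes from −0.12 for Myl2 (adjusted p = 0.528) to 0.09 for Myl7 (adjusted p = 0.603). The smooth muscle heavy chain Myh11 was low, with control values of 0.28 to 0.55 TPM and cKO values of 0.35 to 0.48 TPM.

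**Figure D2:**
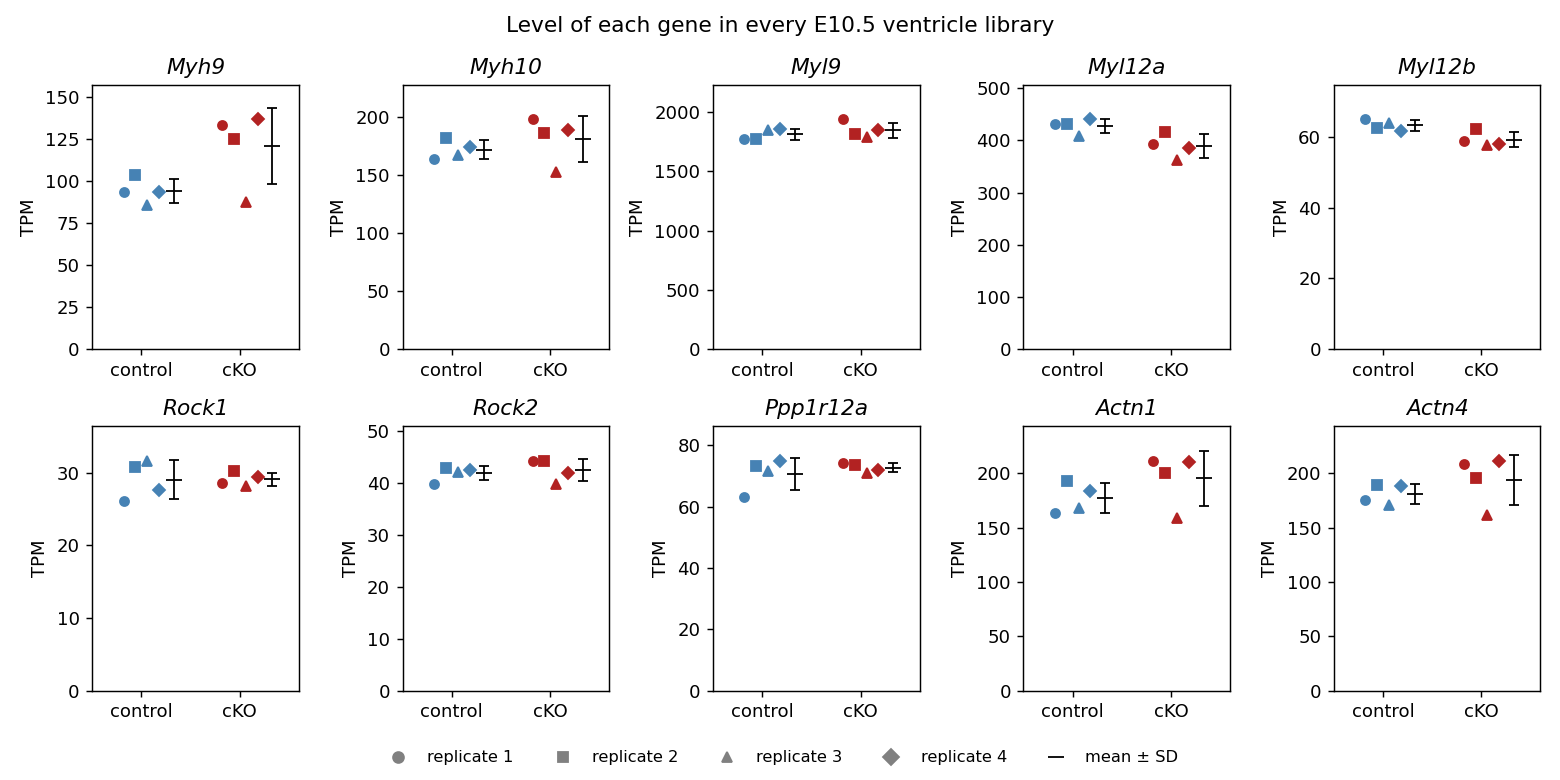
TPM of each of the 10 genes (vertical axes, each from 0) in the 4 control and 4 cKO libraries, with replicates as symbols and the group mean ± SD in black. Myh9 was at 125 to 136 TPM in 3 cKO libraries and at 87.6 TPM in cKO replicate 3, while the controls lay between 85.4 and 103 TPM.

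Among the heavy chains, Myh9 (chr15:77760587-77842175, GRCm38, minus strand), which encodes nonmuscle myosin IIA, was at 133, 125, 87.6 and 136 TPM in cKO replicates 1 to 4 and at 93.7, 103, 85.4 and 93.5 TPM in control replicates 1 to 4. In TPM, 3 cKO libraries were above every control, and cKO replicate 3 lay within the control range. The mean was 121 ± 22.6 TPM in cKO and 94.0 ± 7.34 TPM in control (SD, n = 4 each), and the exact two-sided permutation test on log2 TPM gave p = 0.114. In counts the log2 fold change was 0.33 (SE 0.10, 95% confidence interval 0.11 to 0.54), a fold of 1.25, and the adjusted p of 0.146 in edgeR's quasi-likelihood test did not pass the threshold of 0.05. The call depended on the library and the method: without cKO replicate 3 the log2 fold change was 0.45 (edgeR adjusted p = 0.00184), DESeq2 gave 0.33 (adjusted p = 0.0317), and edgeR gave an adjusted p of 0.0121 with no filter on low counts and of 0.0475 with a replicate block. Over all 19 alternatives the adjusted p of Myh9 lay between 0.00184 and 0.371 and the log2 fold change between 0.25 and 0.45.

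Myh10, which encodes nonmuscle myosin IIB, the isoform abundant in embryonic cardiomyocytes, was at 198, 186, 153 and 188 TPM in cKO and at 164, 182, 167 and 174 TPM in control. The same 3 cKO libraries were above every control, here by a small margin, and cKO replicate 3 was below every control. Its log2 fold change in counts was 0.05 (95% confidence interval −0.10 to 0.19, edgeR adjusted p = 0.853), so changes larger than 1.14-fold upward lay outside the interval.

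Among the regulatory light chains, Myl9 was at 1937, 1813, 1790.5 and 1845 TPM in cKO and at 1768, 1774, 1847 and 1859 TPM in control, with overlapping groups. The edgeR log2 fold change of its counts was 0.00 (95% confidence interval −0.12 to 0.12, adjusted p = 0.996). Myl9 encodes a regulatory light chain shared by smooth muscle and nonmuscle myosin.

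Myl12a was at 102, 111, 106 and 106 CPM in cKO and at 125, 123, 125 and 117 CPM in control, so every cKO library was below every control. The edgeR log2 fold change was −0.21 (SE 0.05, 95% confidence interval −0.32 to −0.10), a fold of 0.865, with an adjusted p of 0.082. DESeq2 called the same gene (log2 fold change −0.20, adjusted p = 0.00894), and the adjusted p lay between 0.00894 and 0.280 over the 19 alternatives, in all of which the sign was negative. In TPM the values were 392, 416, 362 and 385 in cKO and 430.4, 431, 409 and 439.8 in control, so the groups overlapped by 1 library, cKO replicate 2, and the exact two-sided permutation test gave p = 0.0571.

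Myl12b counts were few, 104, 102, 109 and 114 in cKO and 159, 136, 175 and 113 in control. After scaling for depth they were 2.06, 2.12, 2.26 and 2.04 CPM against 2.94, 2.82, 3.09 and 2.26 CPM, so the groups did not overlap, by a margin under 0.01 CPM between cKO replicate 3 and control replicate 4. The log2 fold change was −0.39 (SE 0.16, 95% confidence interval −0.74 to −0.04, edgeR adjusted p = 0.324). The TPM table gave a smaller difference, 59.1 ± 2.10 in cKO against 63.2 ± 1.5 TPM in control (SD, n = 4 each), which is −0.10 on the log2 scale (exact two-sided permutation p = 0.0571).

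The 2 deposited tables disagree on how much Myl12b there was. The median gene had as many counts as its TPM and transcript length call for, by definition 1 on a scale set by 9353 genes, while Myl12b was at 0.0347 and Myl12a at 0.148 on that scale, with 2.73% and 4.51% of genes lower. The other 8 members lay between 0.486 (Actn1) and 1.09 (Myh9). The lengths are those of the canonical GENCODE vM39 transcripts, which need not be the ones expressed. A gene model on the same strand, Gm49909, extends over both loci and shares 462 of the 3657 exon bases of Myl12a and 739 of the 2226 of Myl12b, and it was at 0 in all 8 libraries in both tables. Of the 50-base windows of their transcripts, 8.32% for Myl12a and 9.0% for Myl12b occur in another gene. Gm49909 held 5.20% and 8.01% of the windows, and the other gene of the pair held 1.82% and 2.24%. Myom1, on the opposite strand, held 1.86% of the Myl12a windows. Reads were longer than 50 bases, so these shares do not give the share of reads that match more than 1 gene. How the counting treated reads that match more than 1 gene was not tested, and the values of Myl12a and Myl12b are given as uncertain.

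The ROCK kinases, the effectors that couple RhoA to myosin, did not pass the threshold and had intervals centred near 0. Rock1 was at 28.5, 30.2, 28.2 and 29.4 TPM in cKO and at 26.1, 30.8, 31.7 and 27.6 TPM in control, with all cKO values inside the control range. Its log2 fold change in counts was −0.03 (95% confidence interval −0.16 to 0.10, edgeR adjusted p = 0.920). Rock2, the form with the higher level in this tissue, was at 44.1, 44.3, 39.7 and 41.8 TPM in cKO and at 39.9, 42.9, 42.1 and 42.4 TPM in control. The groups overlapped, and the log2 fold change was −0.01 (95% confidence interval −0.12 to 0.10, edgeR adjusted p = 0.963). The sign of both values changed under some alternatives, which the intervals around 0 allow.

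Ppp1r12a, the subunit (MYPT1) that brings the phosphatase to myosin and is itself a ROCK substrate, was at 74.2, 73.7, 71.1 and 71.9 TPM in cKO and at 63.3, 73.4, 71.6 and 75.0 TPM in control. The cKO libraries lay close together within the wider control range. The log2 fold change was 0.00 (95% confidence interval −0.12 to 0.12, edgeR adjusted p = 0.999). For Rock1, Rock2, Myl9 and Ppp1r12a the intervals thus excluded changes beyond 0.896- to 1.09-fold.

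The nonmuscle alpha-actinins Actn1 and Actn4 bundle actin filaments and anchor them at adhesions. Actn1 was at 212, 201, 159 and 211 TPM in cKO and at 163, 193, 168 and 184 TPM in control, and Actn4 was at 208, 196, 161 and 212 TPM in cKO and at 176, 189, 170.5 and 189 TPM in control. In TPM, cKO replicates 1, 2 and 4 were above every control for both genes and cKO replicate 3 was below every control. The log2 fold changes in counts were 0.08 for Actn1 (95% confidence interval −0.07 to 0.23, edgeR adjusted p = 0.722) and 0.07 for Actn4 (95% confidence interval −0.08 to 0.23, adjusted p = 0.766). The antisense lncRNA genes Gm47766, Gm60876 and Gm47767 overlap 9.16%, 7.06% and 1.08% of the Actn1 exon bases. Of the 50-base windows of Actn1, 13.9% occur in another gene, the highest share of any member. Reads of the 2 strands cannot be told apart with a library kit that does not mark strand. Overlaps with opposite-strand genes, each of at most 7.37% of exon bases, exist for Actn4, Myh10, Myl12a and Myl9.

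Partner genes were then set against each other within each library, as TPM ratios, which does not depend on how libraries are scaled. The ratio of Myh9 to Myh10 was 0.675, 0.670, 0.574 and 0.725 in cKO and 0.572, 0.568, 0.512 and 0.538 in control. Every cKO library was above every control, cKO replicate 3 by the smallest margin. The means were 0.661 ± 0.0632 and 0.547 ± 0.0281 (SD, n = 4 each), a difference of 0.27 on the log2 scale. The exact two-sided permutation test gave p = 0.0286, the smallest that 70 groupings allow, and 0.114 after adjustment over the 4 ratios, so the difference did not pass. Leaving out any 1 library kept the difference between 0.22 and 0.33.

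The ratio of Myl9 to the sum of Myl12a and Myl12b was 4.29, 3.79, 4.26 and 4.17 in cKO and 3.57, 3.60, 3.91 and 3.71 in control. Here 3 cKO libraries were above every control and cKO replicate 2 was not. The difference of 0.16 on the log2 scale had an exact permutation p of 0.0571 and 0.114 after adjustment, and it carries the doubt about Myl12a and Myl12b stated above. The ratios of Rock1 to Rock2 (0.686 ± 0.0290 in cKO, 0.694 ± 0.0499 in control, exact permutation p = 0.771) and of Actn1 to Actn4 (1.0 ± 0.0193 and 0.979 ± 0.0388, exact permutation p = 0.286, adjusted p = 0.381) differed between the groups by less than the control SD.

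**Figure D3:**
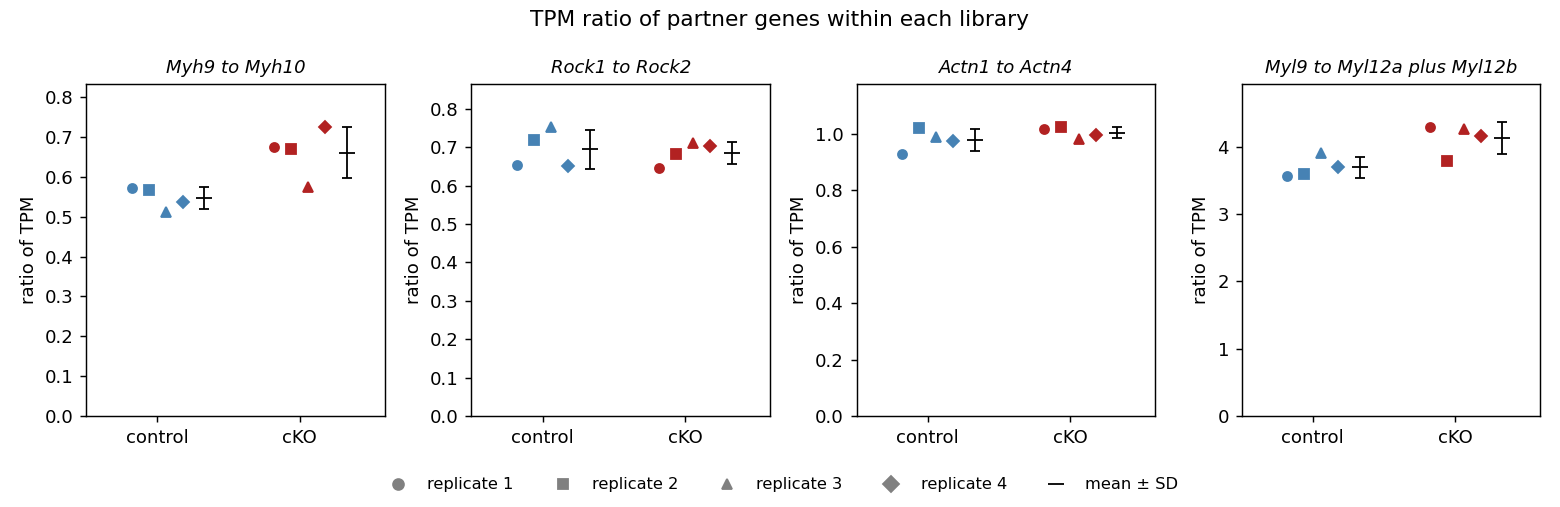
TPM ratio of partner genes within each library (vertical axes from 0), with the 4 control and 4 cKO libraries as points and mean ± SD in black. The Myh9 to Myh10 ratio was 0.574 to 0.725 in cKO and 0.512 to 0.572 in control, while the Rock1 to Rock2 and Actn1 to Actn4 ratios overlapped.

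The spread of Myh9, Myh10, Actn1 and Actn4 followed the same libraries. On the log2 CPM scale and relative to the control mean, Myh9 was at 0.47, 0.36, −0.10 and 0.50 in cKO replicates 1 to 4. Myh10 was at 0.16, 0.08, −0.17 and 0.10, and Actn4 at 0.16, 0.09, −0.17 and 0.20. In all 4 of Myh9, Myh10, Actn1 and Actn4, cKO replicate 3 was the lowest cKO library. After each group mean was subtracted, Pearson's r over the 8 libraries was 0.84 to 0.96 among these 4 genes. Myh9 had r values of −0.44 to 0.46 with the other 6, but the 4 are not set cleanly apart, since Rock2 had r of 0.81 with Actn1 and 0.72 with Myh10, and Myl12b had −0.71 with Actn1. These r are a description over 8 libraries that differ in depth, and whether they were prepared together is not stated. The part of depth and preparation in these r was not tested. Without cKO replicate 3, Actn1 had a log2 fold change of 0.15 and Actn4 of 0.15, and neither passed.

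Markers of some other cell types were higher in cKO as well. All 14 endothelial and endocardial markers were higher in cKO, 6 of them past the adjusted edgeR threshold, and their summed level was 1933 to 2440 CPM in cKO and 1519 to 1785 CPM in control, with none at 0. Their score, the mean log2 CPM relative to the control mean, was 0.60, 0.25, 0.20 and 0.65 in cKO replicates 1 to 4. Each was above every control (−0.16 to 0.08). Replicate 3 was the lowest cKO library, as for Myh9. There Myh9 was at −0.10, within its control range of −0.12 to 0.08. All 8 macrophage markers were higher, 2 of them past the threshold, with a summed level of 11.9 to 39.0 CPM in cKO and 7.21 to 12.03 CPM in control. All 6 megakaryocyte markers were higher with none past it, at 39.0 to 122 CPM and 23.9 to 58.7 CPM. For both lists the summed levels overlapped between the groups. The megakaryocyte score of control replicate 2 (0.93) was above that of cKO replicates 1, 2 and 3. Both lists held markers near the floor, with means of 0.315 CPM for the macrophage gene Adgre1 and 0.037 CPM for the megakaryocyte gene Gp1bb. In the megakaryocyte list 1 marker had a library at 0. The cardiomyocyte list had 4 of 10 genes higher, with scores of −0.03 to −0.01 in cKO. Myh9 is known to be abundant in endothelial and blood cells, and Myh10 in cardiomyocytes. The part of cell mix in the Myh9 values was not tested.

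**Figure D4:**
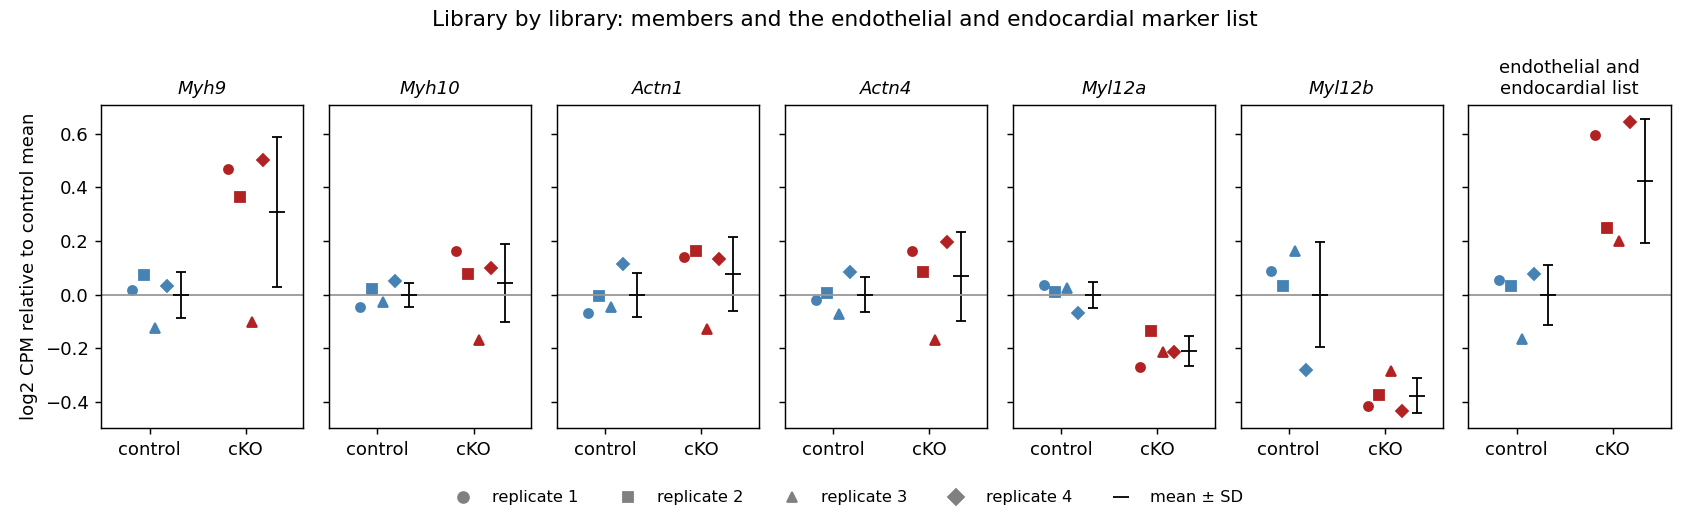
Log2 CPM relative to the control mean (vertical axis) in each control and cKO library for 6 members, and the mean of the same measure over the 14 endothelial and endocardial markers, with mean ± SD in black. Replicate 3 is the lowest cKO library for Myh9, Myh10, Actn1, Actn4 and the marker list. For the list it still lies above every control. All cKO points of Myl12a lie between −0.27 and −0.14.

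The rest of the route from RhoA to myosin was read from 34 further genes. Of these, 19 were higher and 15 lower in cKO and the median was 0.02 on the log2 scale, beside 49.8% higher over all genes. Among more abundant genes fewer were higher in cKO. The counts were 4024 of 9858 at 10 CPM or more (median −0.0234) and 835 of 2200 at 100 CPM or more (median −0.0287). Neither class holds all 34 genes, since Rnd1 had a mean of 5.48 CPM. The gene that passed, 1 of 34 beside 0.858% of all genes tested, was Flna, which encodes filamin A, a large actin cross-linker. It was at 1120.0, 909, 775 and 981 CPM in cKO and at 691, 750.4, 651 and 692 CPM in control, with every cKO above every control. Its log2 fold change was 0.44 (SE 0.09, 95% confidence interval 0.26 to 0.63, edgeR adjusted p = 0.0264), and this call was lost when cKO replicate 1, control replicate 1, control replicate 3 or control replicate 4 was left out and in 3 of the limma fits.

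The genes next by unadjusted p were Ppp1r14b, an inhibitor of myosin phosphatase, with a log2 fold change of −0.21 (edgeR adjusted p = 0.130), and the cytoplasmic actins Actb at 0.20 (adjusted p = 0.130) and Actg1 at 0.18 (adjusted p = 0.177). Every cKO library was above every control for both actins and below for Ppp1r14b. Actb was at 1392, 1338, 1205 and 1402 CPM in cKO and at 1154, 1155, 1127 and 1199 CPM in control, again with replicate 3 the lowest cKO library. DESeq2 called all 3 beside Flna. Groups did not overlap for 6 genes of the list, those 4 and also Rhoc, at a log2 fold change of 0.11, and Rnd3, an antagonist of RhoA signalling, at −0.28. Every cKO was above every control for 4 of the 34 genes, beside 3.14% of all genes and 74 of the 2200 at 100 CPM or more. Every cKO was below every control for 2, beside 3.77% of all genes and 206 of the 2200, a class without Rnd3. Of the 9858 genes at 10 CPM or more this held for 706. Rhoc and Rnd3 are named because of their values. The GTPase Rhoa itself had a log2 fold change of −0.03 (95% confidence interval −0.14 to 0.08) and the kinase gene Mylk of −0.13 (95% confidence interval −0.43 to 0.18), and these 2 are named here as the switch and the other kinase of the pathway, with edgeR adjusted p-values of 0.906 and 0.803.

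**Figure D5:**
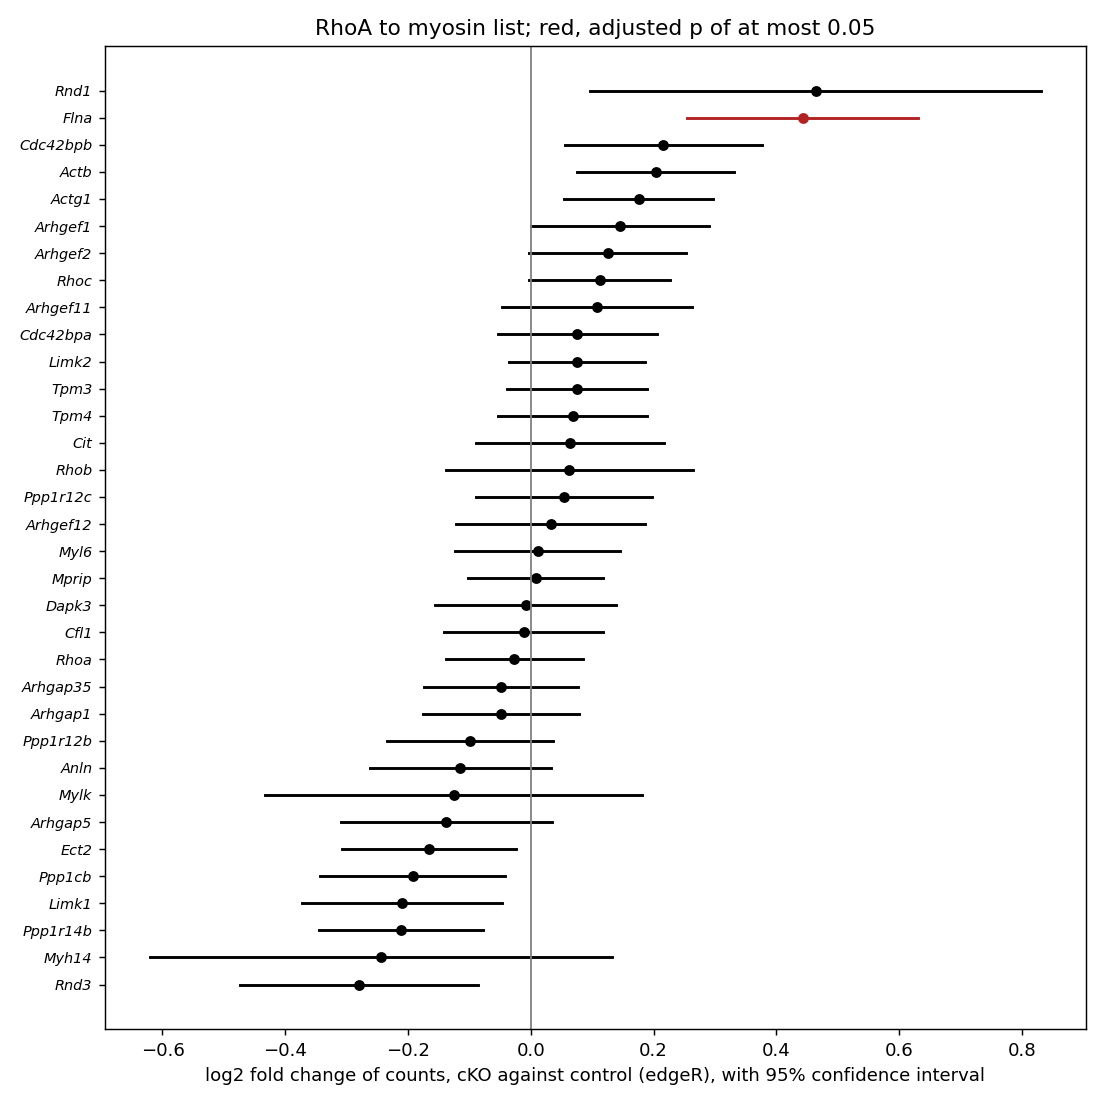
edgeR log2 fold change, cKO against control (horizontal axis), with 95% confidence intervals for the 34 genes of the RhoA to myosin list, ordered by value. Flna (0.44) is the gene past the adjusted threshold, and 11 of the 34 (32.4%) had an unadjusted edgeR p under 0.05. This share was 12.8% of all genes, 19.9% at 10 CPM or more and 23.1% at 100 CPM or more. The list also holds genes below 100 CPM, such as Rnd3, Limk1 and Rnd1.

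The genes whose library-to-library pattern was most like that of the heavy chains were found among 9849 other genes with a mean of at least 10 CPM, by Pearson's r over the 8 libraries after subtracting each group mean. For Myh9 they included Nomo1, Srrm2, Fbxo10 and Myo18a, with r of 0.986 to 0.991. For Myh10 they included Rnf145, Adarb1, Heg1 and Npas4, with r of 0.983 to 0.992. Among these 8, Npas4 passed the threshold with a log2 fold change of 0.95 (edgeR adjusted p = 0.00308). These values rest on 8 points and a search over that many genes, and no test was made of them.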

How the data were processed

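RNA-seq of 8 ventricle libraries, 4 cKO and 4 control, was analysed from 2 deposited tables. The authors deposited 1 table of raw counts and 1 of TPM. The submitters' processing notes name FastQC, Trim Galore 0.6.7, HISAT2 2.2.1, StringTie 2.2.1, featureCounts and DESeq2, and the build GRCm39. The positions in the TPM table, however, lay within 5000 bases of the RefSeq GRCm38 start for 10 of 10 members and of the GRCm39 start for 1. The read length is given as 150 bp in some sources and 100 bp in another. Libraries held 47559845 to 56660938 counts, so counting error is small except for Myl12b, and the depth behind the TPM is not given.

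Genes whose counts summed to 8 or more (26820) were tested with edgeR 4.0.16 in R 4.3.3 (TMM, quasi-likelihood F test, condition alone) with Benjamini-Hochberg adjustment over all of them, and passed at an adjusted p of at most 0.05. Log2 CPM used a prior count of 2. Confidence intervals are 95% and unadjusted. Single values and ratios were compared with exact two-sided permutation tests over all 70 groupings (Python 3.11.15). The method was tested on simulated data. Alternatives were DESeq2 1.42.0, limma 3.58.1 (voom, or log2 TPM with a pseudocount of 1 or 0.1 for genes with a mean of at least 1 TPM), other scalings and filters, a replicate block and each library left out. A fit of limma on log2 CPM of genes with a mean of at least 1 CPM, with and without removal of a length and GC trend (loess span 0.3), was chosen after seeing the data.

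The members and lists were chosen with earlier results of these data known. Named were all members, their sarcomeric and smooth muscle counterparts, Pkn2 and Pkn3, the genes of the RhoA to myosin list past the threshold and the 4 with the smallest p, and the 5 genes most like each of Myh9 and Myh10. Results for 3 genes that this rule names are not reported here. Epicardial, cushion mesenchyme, smooth muscle, erythroid and hepatic markers had 1 of 6, 4 of 6, 2 of 4, 5 of 5 and 0 of 3 tested genes higher, with none past the threshold.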

Additional observations from a re-analysis of the deposited data

Results flagged for a closer look

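Actn1 in cKO replicate 3, at 258 CPM, stood apart from the other 3 cKO libraries, which were at 309 to 315 CPM. The gap was 0.883 of the range of the group, above Dixon's 95% critical value for 4 samples. Of the 28 groups of 4 values examined in this way this was the only one, and chance alone marks about 1 in 20 groups. The cause was not tested.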

How the results depend on the processing

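The number of members past the threshold was 0 in the test as reported and 2 by DESeq2 (867 genes in all), 1 with no filter (878 in all), 1 with the replicate block (380 in all) and 0 to 1 when a library was left out (67 to 744 in all). No member passed both thresholds in any alternative. Limma on log2 TPM called 22 (pseudocount 1) and 25 (0.1) of all genes and no member. Of the RhoA to myosin list 4 genes passed by DESeq2, 0 to 4 with a library left out and 0 by limma on log2(TPM + 1), log2(TPM + 0.1) and log2 CPM. Without cKO replicate 3 the 4 were Flna, Actb, Cdc42bpb and Rnd1.

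Signs turned for values near 0: Rock2 was 0.0064 with the upper quartile, and by limma on TPM with pseudocounts of 1 and 0.1 it was 0.0215 and 0.0219 and Rock1 was 0.0057 and 0.0060. With the length and GC trend removed Myh10 was −0.0013 and Ppp1r12a −0.0054. The same removal took Actn1 from 0.077 to 0.043 and Actn4 from 0.069 to 0.039 in limma on log2 CPM. Myh9 went from 0.309 to 0.251 and Myl12a from −0.209 to −0.195. With a library left out, log2 fold changes lay between −0.0245 and 0.0122 for Rock2, −0.0677 and 0.0235 for Rock1, −0.0172 and 0.0274 for Myl9, and −0.0379 and 0.0434 for Ppp1r12a, and the Rock1 to Rock2 difference lay between −0.0453 and 0.0239. Without a library the log2 fold changes were 0.27 to 0.45 for Myh9, −0.23 to −0.18 for Myl12a and −0.48 to −0.34 for Myl12b.

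With the replicate block Myh9 had a log2 fold change of 0.31 (edgeR adjusted p = 0.0475), and no other member changed its call. The labels do not say whether same-numbered libraries are pairs. Their deviations from the group means correlated at −0.19, −0.03, 0.01 and −0.14 over 14302 genes, which cannot decide whether littermates were paired. The causes were not tested. The signs of Myh9, Myl12a, Myl12b, Actn1 and Actn4 did not change in any of the 19 alternatives.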
